A study of Mus musculus with 3 samples.

Results

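In cultured mouse hematopoietic stem cells (HSCs), 2053 regions of open chromatin had an ATAC-seq peak under the solvent DMSO and none under either of 2 mTOR inhibitors, AZD2014 and rapamycin. They were chosen by cutting each condition's peak list to its 17189 highest scores, which is the whole DMSO list, merging overlapping peaks into regions and keeping those with a DMSO peak alone. They are called DMSO-alone regions here. They were 12.1% of the 16976 regions with a DMSO peak and came from 21893 regions in all. Of the 2053, 1449 (70.6%, 95% Wilson interval 68.6 to 72.5) had no peak in either full drug list, which is 8.54% of the DMSO regions. Another 492 had a peak in the full AZD2014 list only, 62 in the full rapamycin list only and 50 in both, in each case below the score at which that list was cut. The cut removed 4132 of 21321 AZD2014 peaks and 1044 of 18233 rapamycin peaks, so these counts do not compare the drugs. Presence and absence of peaks chose these regions, so those counts are a description and were not tested.

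The cells came from adult Mx1-Cre-/-;mTORflox/flox mice, which carry floxed mTOR alleles but no Cre transgene, so that the kinase is intact in all 3 conditions. All donors had received poly(I:C), a double-stranded RNA that provokes an interferon response, and the HSCs were sorted by FACS and cultured in StemSpan SFEM. The conditions were DMSO, 200 nM AZD2014, an ATP-competitive inhibitor of the mTOR kinase, and 1 µM rapamycin, which inhibits mTOR complex 1 through the protein FKBP12. The labels give neither the time of drug exposure nor the number of mice pooled. There was 1 library of 50000 cells per condition, so there is no replicate check, no p-value is given, and the Wilson intervals cover counting error only. All 12 HSC marker genes checked had a peak within 20 kb in each of the 3 equal-length lists, and 6, 6 and 5 of them had one at a gene end under DMSO, AZD2014 and rapamycin. Peaks within 20 kb do not tell cell types apart here, since all 3 B-cell, all 3 T-cell and 3 of 4 non-blood marker genes also had one in each list. Of 3 mast cell marker genes, 0 had one under DMSO and AZD2014 and 1 under rapamycin. Depth is unknown, since the lists carry no read numbers.

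In ATAC-seq, a transposase inserts sequencing adapters where DNA is not wrapped tightly in nucleosomes, so a peak marks a promoter, an enhancer or another accessible site. Promoters of broadly expressed genes, many of them rich in CpG dinucleotides, tend to be open in most cell types, while accessible sites inside and between genes are more often enhancers whose use differs between cell states. mTOR is the kinase of 2 protein complexes that couple nutrients and growth factor signals to translation, autophagy and cell growth, and HSCs depend on restrained mTOR activity to stay quiescent.

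Promoters of 6 named genes whose listed start lies in a DMSO-alone region are shown, to let their sequences be compared. They have the highest DMSO scores among the genes the naming rule picks. Starts of other genes, among them Cpne8 (99.02) and Sgsm1 (93.47), also scored above the lowest of the 6. Each runs 5′ to 3′ from 250 bases before to 50 after the start, from RefSeq on GRCm38.p6 (the assembly named mm10), with CpG dinucleotides in capitals.
Cilk1 promoter, chr9:78112988-78113287, plus strand: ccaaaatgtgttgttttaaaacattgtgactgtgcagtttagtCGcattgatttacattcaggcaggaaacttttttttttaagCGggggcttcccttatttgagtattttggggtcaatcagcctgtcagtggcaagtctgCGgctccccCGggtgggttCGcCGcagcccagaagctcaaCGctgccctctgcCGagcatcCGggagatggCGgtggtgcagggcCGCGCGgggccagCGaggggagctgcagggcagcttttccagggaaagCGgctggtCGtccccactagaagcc
Aqp8 promoter, chr7:123462044-123462343, plus strand: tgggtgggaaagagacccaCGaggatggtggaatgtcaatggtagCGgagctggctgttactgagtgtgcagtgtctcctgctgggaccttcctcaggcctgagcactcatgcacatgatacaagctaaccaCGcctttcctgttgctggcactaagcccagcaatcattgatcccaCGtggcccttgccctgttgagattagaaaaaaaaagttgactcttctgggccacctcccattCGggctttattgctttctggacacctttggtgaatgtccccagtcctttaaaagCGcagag
Apbb1 promoter, chr7:105581442-105581741, minus strand: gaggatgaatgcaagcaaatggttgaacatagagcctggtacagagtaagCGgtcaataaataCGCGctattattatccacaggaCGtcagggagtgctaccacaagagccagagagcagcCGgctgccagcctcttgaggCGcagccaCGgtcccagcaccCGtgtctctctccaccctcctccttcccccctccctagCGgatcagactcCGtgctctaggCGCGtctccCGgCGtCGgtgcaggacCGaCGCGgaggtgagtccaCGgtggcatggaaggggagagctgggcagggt
Sox13 promoter, chr1:133424163-133424462, minus strand: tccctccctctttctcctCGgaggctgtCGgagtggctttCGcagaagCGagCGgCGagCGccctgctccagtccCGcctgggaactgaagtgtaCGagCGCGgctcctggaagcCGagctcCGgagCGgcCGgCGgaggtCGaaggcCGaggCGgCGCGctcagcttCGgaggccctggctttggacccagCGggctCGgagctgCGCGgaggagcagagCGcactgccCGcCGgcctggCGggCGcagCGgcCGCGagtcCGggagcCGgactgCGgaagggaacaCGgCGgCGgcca
Kbtbd12 promoter, chr6:88627380-88627679, minus strand: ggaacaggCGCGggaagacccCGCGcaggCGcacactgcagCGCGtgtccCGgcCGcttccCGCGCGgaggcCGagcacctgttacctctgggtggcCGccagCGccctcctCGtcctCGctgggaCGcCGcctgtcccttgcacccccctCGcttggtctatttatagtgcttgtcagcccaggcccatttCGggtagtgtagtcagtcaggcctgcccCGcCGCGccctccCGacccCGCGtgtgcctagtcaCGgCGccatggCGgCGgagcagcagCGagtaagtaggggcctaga
Ifitm1 promoter, chr7:140967826-140968125, plus strand: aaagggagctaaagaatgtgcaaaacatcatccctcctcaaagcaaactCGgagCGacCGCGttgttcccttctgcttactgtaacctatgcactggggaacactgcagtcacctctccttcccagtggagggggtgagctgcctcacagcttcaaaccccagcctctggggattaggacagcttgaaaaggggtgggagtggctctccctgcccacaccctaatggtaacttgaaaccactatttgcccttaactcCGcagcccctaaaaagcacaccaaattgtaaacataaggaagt

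These 6 promoters fell into CpG-rich and CpG-poor sequences. Sox13 (a SOX family transcription factor expressed in HSCs) held 40 CpG in its 300 bases and 73.3% G or C, and Kbtbd12 (a kelch-repeat gene) 32 CpG. Apbb1, which encodes an adaptor that binds the amyloid precursor protein, held 19 and Cilk1, the gene of a kinase of cilia, held 16. Aqp8, a water channel gene, held 6 CpG, and Ifitm1, which encodes an interferon-induced membrane protein that restricts virus entry, held 5. The DMSO peak scored 130.17 at Cilk1, 116.09 at Aqp8, 114.97 at Apbb1, 106.77 at Sox13, 106.21 at Kbtbd12 and 86.28 at Ifitm1. Neither full drug list held a peak there for Cilk1, Sox13, Kbtbd12 and Ifitm1. Aqp8 and Apbb1 had an overlapping AZD2014 peak beyond the cut, with scores of 57.89 and 65.85, and no rapamycin peak. The Cilk1 start is one inside the gene, 3792 bp from its nearest annotated end. Within 20 kb of Cilk1 the equal-length lists had 4 DMSO, 3 AZD2014 and 3 rapamycin peaks. Within 20 kb of Ifitm1 each of these lists had 3.

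Each deposited peak has a score set by the authors, which ranks peaks within a list and has no known common scale between lists. The DMSO list was divided into 10 equal bins by rank, bin 1 holding the highest scores. DMSO-alone regions had a median DMSO score of 60.05 (quartiles 54.85 and 68.86, range 50.01 to 388.35), where the lowest score in the list was 50.01. The other 14923 DMSO regions had a median of 144.22. In ranks, the median DMSO-alone region stood at place 14993 of 17189. Bins 8 to 10 held 1835 of the 2053 regions (89.4%), and bins 1 to 5 held 11. The regions absent from both drugs were therefore, with few exceptions, peaks of low rank under DMSO itself.

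**Figure D1:**
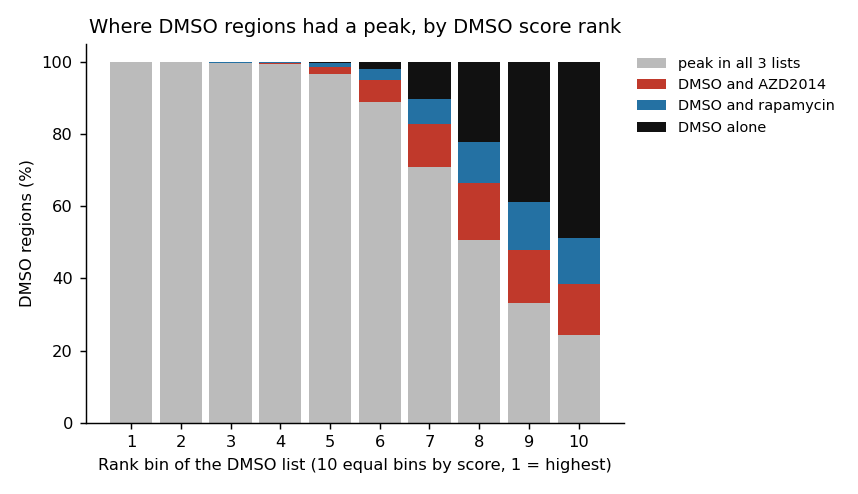
Share of DMSO regions (vertical axis, percent) in each of 10 equal rank bins of the DMSO list (horizontal axis, bin 1 holds the highest scores), divided by the equal-length lists in which the region had a peak. The DMSO-alone share, in black at the top of each bar, runs from 0.353% in bin 5 to 48.9% in bin 10, while the share found in all 3 lists falls from 96.8% to 24.5%.

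The share of DMSO regions that had no peak under either drug was 0.353% in bin 5, 2.0% in bin 6, 10.2% in bin 7, 22.3% in bin 8, 38.9% in bin 9 and 48.9% in bin 10. Over the same bins the share found in all 3 lists fell from 96.8% to 24.5%. Regions with a single drug partner stayed a minority in the lower bins: in bin 10, 14.0% were shared with AZD2014 only and 12.7% with rapamycin only. Regions found in one drug list alone numbered 1658 for AZD2014 and 1882 for rapamycin and sat at like places in their own lists, with median ranks at 88.0% and 88.4% of the list against 87.2% for the DMSO-alone regions.

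The DMSO-alone regions were narrow. Their median width was 374 bp (quartiles 336 and 447), against 653 bp for the DMSO peak of the other DMSO regions. Part of that gap went with rank, since in bins 8 to 10 the medians were 368 and 429 bp. Only 13 were 1000 bp wide or more. In each of bins 6 to 10 the DMSO-alone median was the smaller, at 518 against 579 bp in bin 6 and 360 against 379 bp in bin 10. A narrower peak has less room to overlap a drug peak, so width was not independent of the rule. Regions of AZD2014 alone and rapamycin alone had medians of 541 and 476 bp. Peaks of the full lists had medians of 610 bp under DMSO, 700 bp under AZD2014 and 710 bp under rapamycin.

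By place, 15.1% of the DMSO-alone regions (311; interval 13.7 to 16.8) lay within 1 kb of either end of a protein-coding gene. A further 43.2% lay in a gene body and 41.7% outside genes. The other DMSO regions were at gene ends in 57.5%, in gene bodies in 23.4% and outside genes in 19.1%. Because weak peaks of any kind lie less often at gene ends, the comparison was also made within rank: in bins 8 to 10, 14.5% (interval 13.0 to 16.2) of DMSO-alone and 27.2% (25.6 to 28.7) of other DMSO regions were at a gene end. The DMSO-alone share was the lower one in each of bins 6 to 10, at 29.4% against 44.2% in bin 6 and 13.5% against 25.7% in bin 10. This arrangement was not particular to DMSO. Regions found in rapamycin alone were at a gene end in 13.7% (interval 12.2 to 15.3) and those in AZD2014 alone in 19.1% (17.2 to 21.0). No protein-coding gene lay within 20 kb of 479 DMSO-alone regions (23.3%), against 10.2% of the other DMSO regions.

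**Figure D2:**
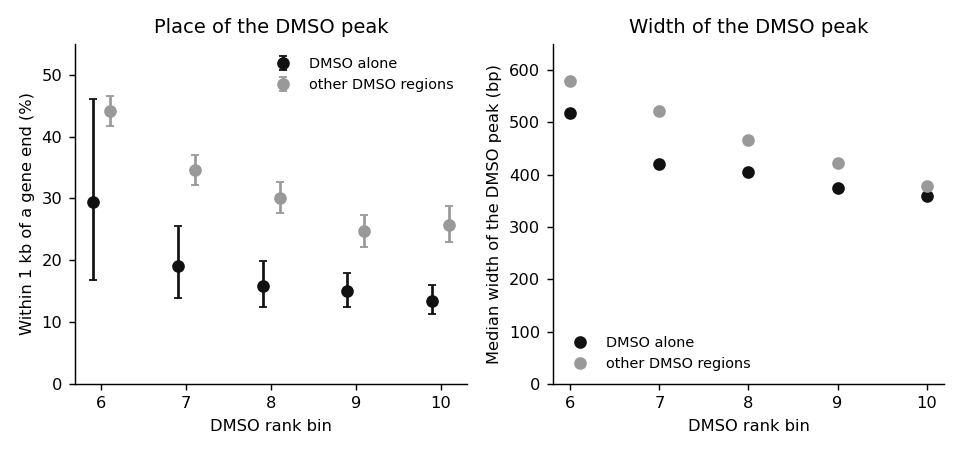
Left, share of DMSO peaks within 1 kb of a protein-coding gene end (percent, with 95% Wilson intervals as bars) in rank bins 6 to 10 of the DMSO list, and right, their median width (bp). DMSO-alone regions (black) lie below the other DMSO regions (grey) in each bin, with 13.5% against 25.7% at a gene end in bin 10.

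Neighbouring peaks were counted next. Another DMSO-alone region lay within 20 kb of 148 (7.21%), and a region found in all 3 lists lay within 20 kb of 741 (36.1%). The latter share was 36.5% for regions found in all 3 lists and ranked in bins 9 and 10, counting a second such region. From the 1449 regions absent from both full drug lists, the nearest AZD2014 peak was a median of 20067 bp away and the nearest rapamycin peak 23398 bp. Only 43 of them had an AZD2014 peak, and 33 a rapamycin peak, within 500 bp. Across chromosomes, the DMSO-alone share of DMSO regions ran from 9.66% on chromosome 11 (122 of 1263, interval 8.15 to 11.4) to 15% on chromosome 6 (140 of 933, interval 12.9 to 17.4), apart from the Y chromosome with 2 of 12.

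The DMSO-alone regions with the 5 highest scores lay at only 3 loci. As background, the starts of mouse chromosome sequences next to the centromere, the pseudoautosomal boundary and the tandem array of 4.5S RNA genes all hold repeated or duplicated sequence, and the loci lie there. The sources used here do not say how reads that align to several positions were treated, and their part in these peaks was not tested. The highest was chr9:3023123-3026111 on mm10, with a score of 388.35 at rank 1348 and a width of 2989 bp, in a stretch with no protein-coding gene within 20 kb. On either side of it stood 2 more DMSO-alone regions, chr9:3012591-3014572 with a score of 95.05 and chr9:3034215-3038337 with 92.02. The latter was 4123 bp wide and ended just before the microRNA gene Mir101c. A peak of the same 50-kb stretch, chr9:2999955-3004445, was in all 3 lists with scores of 1477.2 under DMSO, 1877.34 under AZD2014 and 1570.21 under rapamycin.

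At the distal end of Mid1 on the X chromosome, DMSO peaks followed one another where the drug lists had next to none. Mid1 (chrX:169685199-169990798, plus strand) encodes an E3 ubiquitin ligase of microtubules and in the house mouse crosses into the pseudoautosomal region, which X and Y share. A DMSO peak scoring 260 (rank 3578) began 168 bp past the end of the gene, and one scoring 321.26 (rank 2278) lay 17561 bp past it, just before the pseudogene Erdr1. Between them was the widest DMSO-alone region, of 6978 bp, with a score of 61.77. Within 20 kb of Mid1, DMSO had 5 peaks and both equal-length drug lists had 0, and all 5 were DMSO-alone regions. In the full lists, AZD2014 had 1 of these 5, inside the gene body (score 63.55, DMSO score 73.14), and 1 more peak (score 50.3) at a DMSO-alone region farther out with a DMSO score of 78.57. Rapamycin had none. On the Y chromosome, a DMSO-alone region scoring 123.1 lay next to the pseudogene Mid1-ps1.

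**Figure D3:**
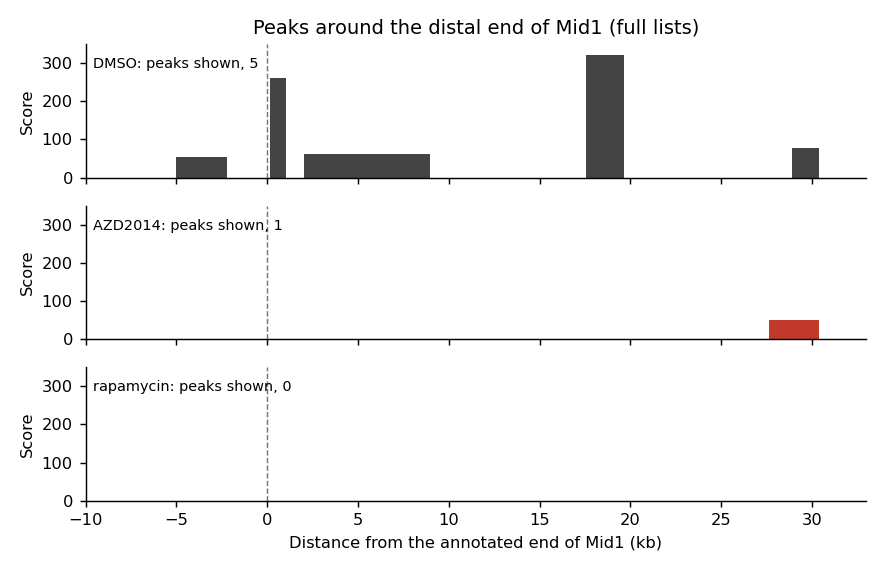
Peaks of the 3 full lists around the distal end of Mid1, drawn to scale by distance from the annotated gene end (kb, dashed line at 0) with each peak's deposited score as its height. DMSO has 5 peaks here, up to a score of 321.26, AZD2014 has 1 with a score of 50.3 and rapamycin has 0. Heights rank peaks within a list and are not comparable between lists.

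The remaining locus, on chromosome 6 between the genes Rn4.5s and Rny3, holds a row of regularly spaced peaks. The equal-length lists had 17 DMSO, 13 AZD2014 and 13 rapamycin peaks there. DMSO peaks scoring 217.4 (chr6:47748101-47749406, rank 4726) and 178.63 (chr6:47676494-47677376, rank 6037) had no drug partner, and another, scoring 84.33, had one beyond the AZD2014 cut with a score of 53.26. Most of the row was present in all conditions, unlike the Mid1 end.

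Below these loci the scores dropped to 135.04, and 43 DMSO-alone regions in all scored 100 or more. The regions next in rank had a weak drug peak. In Tcf4, a gene of E proteins that bind E-box DNA, the DMSO peak scored 135.04, and peaks beyond the cut scored 66.07 under AZD2014 and 50.82 under rapamycin. In Klf13, a Krüppel-like factor gene, the scores were 133.13 under DMSO and 62.43 under AZD2014, with none under rapamycin. In Prkag2, a subunit gene of the energy sensor AMPK, they were 130.64 under DMSO and 51.21 under rapamycin, with none under AZD2014. These values show how far the cut alone can place a region among the DMSO-alone ones.

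Of regions absent from both full lists near a protein-coding gene, predicted genes passed over, the highest after Mid1 was a start inside Cilk1. Next came a region 4564 bp from Cnih3, a gene of an AMPA receptor auxiliary protein (score 123.92). Map3k8 encodes the kinase TPL2, which activates MEK and ERK downstream of NF-kB signalling. In the equal-length lists, a DMSO peak at a gene end (chr18:4352792-4353628, score 115.37, rank 9113) was the one peak within 20 kb of Map3k8. In the full lists, the drug peaks nearest to that DMSO peak lay 21630 bp away under AZD2014 and 18742 bp under rapamycin. The rapamycin peak, beyond the cut, was thus also within 20 kb of the gene. A region 6658 bp from Angpt1, which encodes angiopoietin-1, a ligand of the Tie2 receptor of HSCs, scored 109.61. The drug peaks nearest to the region were 162382 and 203681 bp away, although the window of the long gene held 3 DMSO, 4 AZD2014 and 2 rapamycin peaks. Kbtbd12 likewise had its start as the one DMSO peak within 20 kb, with 0 in both equal-length drug lists. At Sox13, 2 DMSO peaks stood against 1 under AZD2014 and 2 under rapamycin, so the gene kept a peak within 20 kb in each list. The rest of the highest 15 lay at or near Poc1b, Gng8, Rapgef5, Actr3, Glipr1l3, Synpo and Dtnb, with scores from 101.67 (Dtnb) to 109.47 (Poc1b).

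At gene ends, 332 of 21887 protein-coding genes (1.52%) had a DMSO-alone region, and 281 of them had no other DMSO region there. The highest after Mid1 at a gene that is not a predicted one was in Cyp4f17, a cytochrome P450 gene, with a DMSO score of 123.51 and an AZD2014 peak of 66.39 just under the cut. At Eef1b2, which encodes a subunit of translation elongation factor 1, the region stood past the far end of the gene, 4125 bp from its listed start. It scored 108.63, with a rapamycin peak of 50.18 beyond the cut. Efhb, an EF-hand gene, scored 106.93 under DMSO and 50.37 under AZD2014 beyond the cut. Gng8, a G protein gamma subunit gene, scored 107.8 and had no peak in either full drug list.

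Of the protein-coding genes with a listed start on GRCm38.p6, 172 had one inside a DMSO-alone region, through 185 promoter windows of 300 bases. At least 10 CpG were present in 68.1% of these windows (interval 61.1 to 74.4), in 94.2% of windows whose start lay in a region of all 3 lists, and in 56.8% of all 21263 windows. In bins 8 to 10 alone the shares were 68.0% (60.2 to 74.8) of 153 windows and 86.5% (83.0 to 89.4) of 430. The drugs' own regions were similar, at 73.5% for AZD2014 alone and 74.4% for rapamycin alone. In bins 8 to 10 pooled, DMSO-alone promoters thus reached 10 CpG less often than promoters in regions of all 3 lists. Ranks were not matched within that pool. Bins 8, 9 and 10 held 374, 652 and 809 DMSO-alone regions, and 852, 555 and 405 regions of all 3 lists. Over all bins, the DMSO-alone interval overlapped those of the drugs' single-list promoters (66.9 to 79.2 for AZD2014 and 67.1 to 80.5 for rapamycin).

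**Figure D4:**
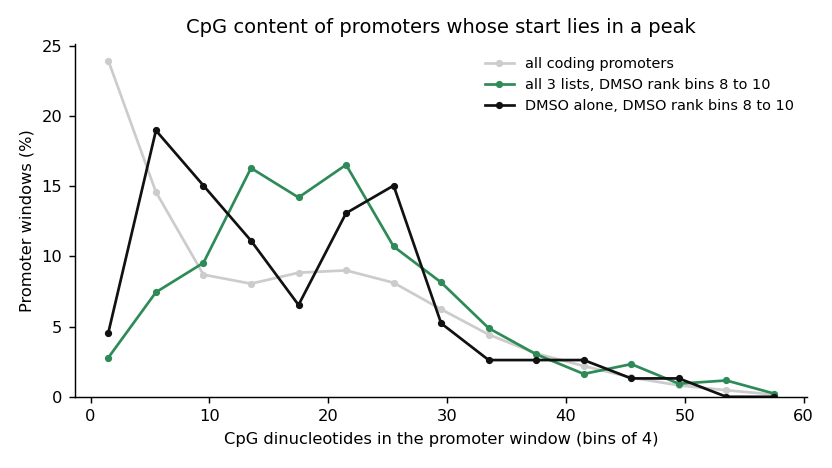
Distribution of the number of CpG dinucleotides per 300-base promoter window (horizontal axis, bins of 4) as a percentage of windows (vertical axis), for 153 windows starting in DMSO-alone regions and 430 in regions of all 3 lists, both from DMSO rank bins 8 to 10, and for all 21263 windows. The DMSO-alone curve has a peak at few CpG that the curve of all 3 lists lacks, with medians of 16 and 19 CpG.

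Short motifs were counted on both strands, and a match describes letters, not a bound site. Windows whose start lay in DMSO-alone regions of bins 8 to 10 were set beside those in regions of all 3 lists in the same bins. The ETS motif CCGGAAG was in 9.80% (interval 6.03 to 15.5) of the former and 17.7% (14.4 to 21.6) of the latter, and in 11.6% of all windows. Windows in AZD2014-alone and rapamycin-alone regions were also low, at 8.67% and 10.6%. The E-box CACGTG, the letters of MYC and MiT/TFE sites, was in 11.1% and 15.8%, and in 7.84% of all windows. The RUNX motif TGTGGT was in 17.6% and 10.2%, against 15.3% for AZD2014 alone and 13.8% for rapamycin alone. The interferon response element GAAANNGAA was in 11.1% (7.05 to 17.1) and 7.91% (5.71 to 10.8), and in 5.10% and 5.63% of the drugs' single-list windows. For the GC box GGGCGG the shares were 62.1% and 63.5%, for AP-1 (TGANTCA) 7.19% and 5.12% and for the CREB motif (TGACGT) 9.80% and 8.14%. The motif of GATA factors, AGATAA, was in 5.23% and 5.12%, NF-kB (GGGANTTTC) in 0.654% and 0.930%, and the CCAAT box (ATTGG) in 37.3% and 30.9%. Over all windows the shares were 8.15% (interferon), 46.2% (GC box), 6.99% (AP-1), 8.49% (CREB), 9.65% (AGATAA), 1.08% (NF-kB) and 38.2% (CCAAT), and the RUNX motif in 15%. No difference between these shares was tested, and the intervals of DMSO-alone and all-3-lists windows overlapped for ETS, RUNX and the interferon element alike. Among the printed promoters, Aqp8 held 1 E-box and Apbb1 held 1 CREB motif and 1 RUNX motif, while the others held none of these 10 motifs.

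Within 20 kb, 2192 protein-coding genes (10% of 21887) had a DMSO-alone region, which is 15.1% of the 14536 genes with any DMSO region in that window. AZD2014-alone regions reached 1913 genes (8.74%) and rapamycin-alone regions 1918 (8.76%). Of the 2192 genes, 75.7% also had a region of all 3 lists within 20 kb, against 93.2% of all genes with any DMSO region. That gap is partly built in, because a region of all 3 lists by itself places a gene in the larger set. There were 313 genes (1.43%) with peaks within 20 kb under DMSO and none under either drug in the equal-length lists. The same count was 290 for AZD2014 and 312 for rapamycin.

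Only 8 of 21887 protein-coding genes had 2 or more DMSO peaks within 20 kb and none in either full drug list. These 8 were singled out after their values were seen. In the equal-length lists, 17 genes had 2 or more peaks under DMSO only, against 11 under AZD2014 only and 17 under rapamycin only, so this was not particular to DMSO. Rhag, the erythroid Rh-associated glycoprotein gene, had 2, one scoring 75.11 at 4020 bp and one scoring 56.12 at the start of the neighbouring Crisp2, a sperm protein gene that had 3 within its own window. Their nearest drug peaks were 62104 bp or more away. Irf7, the interferon regulatory factor that drives type I interferon genes, had 2, scoring 61.25 over its own start and 61.01 at 2252 bp, and shared them with Cdhr5 and Sct. Their nearest drug peaks were 36707 bp away or more. Aadac, Chst9 and Sgsm1 complete the 8.

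Genes with several DMSO-alone regions were few: 184 had 2 and 19 had 3 or more. After Mid1 with 5, the highest counts were 4, at Pde4d, Camk2d, Sox5, Pde4dip and Uck2. Pde4d, which encodes a phosphodiesterase that degrades cAMP, is a very long gene. It had 12 DMSO, 11 AZD2014 and 9 rapamycin peaks within 20 kb, with its 4 DMSO-alone regions scoring 62.01 to 86.48. Camk2d, a calcium-dependent kinase gene, had 7, 3 and 2 peaks, and 3 of its 4 regions had an AZD2014 peak beyond the cut. Sox5, a SOX family gene, had 8, 4 and 3. Its regions scoring 70.3, 74.16 and 57.26 had an AZD2014 peak beyond the cut, the last also a rapamycin peak. Uck2, the uridine-cytidine kinase of nucleotide salvage, had 5, 2 and 2, with 4 regions in the gene body scoring 52.55 to 61.81. Its regions scoring 57.96 and 52.55 had AZD2014 peaks beyond the cut, at 58.62 and 64.13. Gna13 and Amz2, neighbours on chromosome 11, had 3 each and shared 2 of them, while Ptpre and Tns1 also had 3. Pde4d, Pde4dip, Amz2, Gna13 and Ptpre also had a DMSO-alone region with an AZD2014 peak beyond the cut. At each of the genes with 3 or more regions named here, the DMSO count exceeded both drug counts of the equal-length lists. The rule chose these genes by their DMSO-alone regions, so that order is favoured by the choice.

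Gene lists for HSC biology and for mTOR were counted next, with the percentages of all protein-coding genes above as background. Of 598 listed genes, 85 (14.2%, interval 11.6 to 17.2) had a DMSO-alone region within 20 kb. The same lists had 89 genes (14.9%) with an AZD2014-alone region and 88 (14.7%) with a rapamycin-alone region, so the 3 single-list classes touched them about equally.

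HSC transcription factors had the highest share of the 24 lists, 15 of 36 genes (41.7%, interval 27.1 to 57.8), from 13 distinct regions. They had AZD2014-alone regions at 12 genes and rapamycin-alone regions at 16, and their windows held 96 DMSO, 93 AZD2014 and 99 rapamycin peaks in the equal-length lists. As shares, these were 33.3% for AZD2014 and 44.4% for rapamycin, so the high share was not particular to DMSO. With the gene body alone the DMSO-alone count was 9 genes (25%), against 4.91% of all protein-coding genes. Besides the Sox13 start, a region at an end of Lmo2, which encodes a bridging factor of the TAL1 and GATA complex, scored 88.6 under DMSO and 53.24 under AZD2014 beyond the cut. An alternative start of Gata2 scored 61.33 under DMSO and 64.13 under AZD2014 beyond the cut. A region 5243 bp from Mecom, whose product EVI1 sustains HSC self-renewal, scored 52 under DMSO and 63.56 under AZD2014 beyond the cut. At Lyl1, an E-box factor gene, the region scored 59.81 while its window held 2 DMSO peaks and 5 under each drug. Hoxa7, Hoxa9 and Hoxa10 shared 2 regions, and Hoxa5 had only the second of them. The first was chr6:52225948-52226550 (score 53.81), inside Hoxa9 and 819 bp from its listed start. The second was chr6:52211640-52211946 (score 50.15), with an AZD2014 peak of 55.06 beyond the cut. Without these 4 genes, 11 of 32 had a DMSO-alone region, 8 an AZD2014-alone and 12 a rapamycin-alone region. Regions in Fli1, Prdm16, Ikzf2 and Nfe2 scored 50.21 to 59.49, with no peak in either full drug list.

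HSC surface and niche genes had a DMSO-alone region at 5 of 25: Cd44, Esam, Eng, Ptprc and Ctnnal1. A start of Eng, which encodes endoglin, a co-receptor for TGF-beta family ligands, lay in one with a score of 52.8. The region near Ptprc, the gene of CD45, scored 68.72. Quiescence genes had one at 2 of 16, over a start of Cdkn1a, the p21 gene (score 57.76), and within Trp53, the p53 gene (score 71.71).

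Cell cycle genes had a DMSO-alone region at 7 of 33 (21.2%, interval 10.7 to 37.8), with AZD2014-alone and rapamycin-alone regions at 3 each. The count was 2 (6.06%) with the gene body alone, against 4.91% of all protein-coding genes. Within 50 kb it was 11 (33.3%), against 16.9%. The 7 were Ccnd2, Cdk4, E2f1, Mcm5, Pcna, Aurkb and Top2a, which encode a D cyclin, its kinase, an S-phase transcription factor, a replicative helicase subunit, the replication clamp, a mitotic kinase and a topoisomerase. Their 9 regions scored 51.61 to 64.99 under DMSO. None was at an end of the listed gene itself, and only Ccnd2 and Mcm5 had one inside the gene. The 2 regions near Aurkb had AZD2014 peaks beyond the cut, with scores of 63.52 and 65.04.

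The mTOR pathway genes include the kinase complexes and the sensors that feed them. A DMSO-alone region lay within 20 kb of 3 of 49 (6.12%, interval 2.10 to 16.5), against 10 of 49 (20.4%) for AZD2014-alone and 9 (18.4%) for rapamycin-alone regions. Within 50 kb the DMSO-alone count was 7 (14.3%), against 16.9% of all protein-coding genes. The 3 were Lamtor4, a Ragulator subunit gene (score 51.42, AZD2014 54.33 beyond the cut), Sesn2, which encodes a leucine sensor (50.36), and Akt1, the kinase gene upstream of mTORC1 (54.38, at the start of its neighbour Zbtb42). Mtor, Rptor and Rictor had none. Cytokine receptor and JAK-STAT genes were similar, with 1 of 31, at the start of Il2rg, the common gamma chain gene (67.57), against 7 and 4 genes for the drugs. No difference between these shares was tested.

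**Figure D5:**
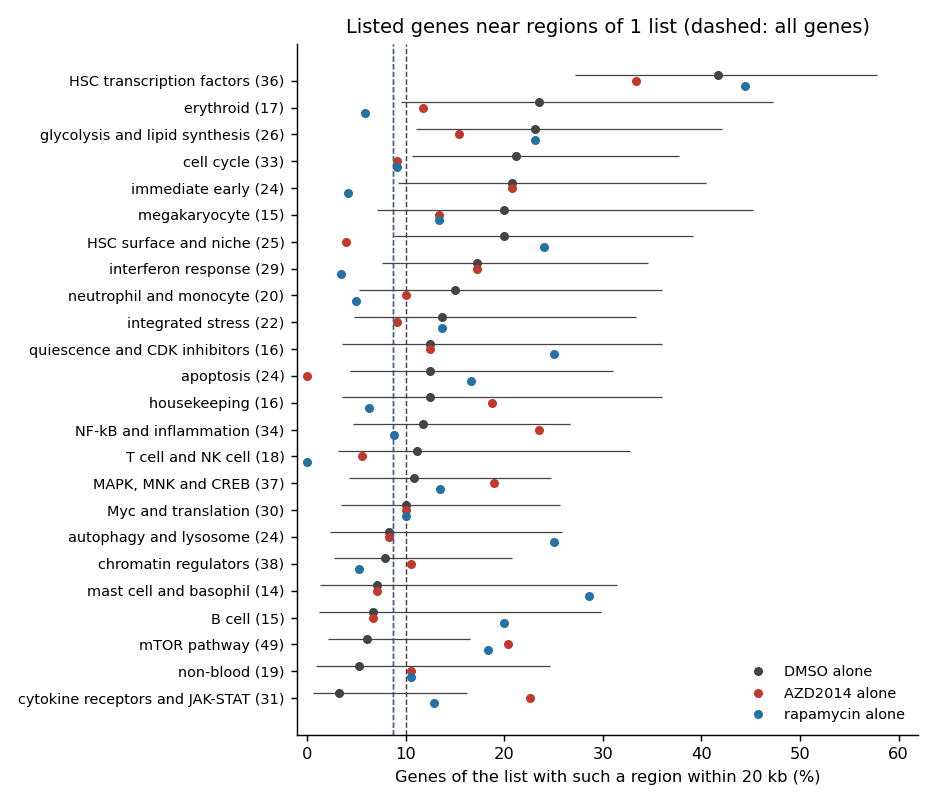
Percentage of genes in each of 24 lists (number of genes in brackets) with a DMSO-alone (grey, 95% Wilson interval as line), AZD2014-alone (red) or rapamycin-alone (blue) region within 20 kb. Dashed lines give the same over all protein-coding genes, 10% for DMSO and 8.74% and 8.76% for the drugs. HSC transcription factors are highest for all 3 classes, at 41.7% for DMSO.

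Downstream of growth factors, MAPK, MNK and CREB genes had one at 4 of 37 (Map3k8, Creb5 and Crtc3 among them). Immediate early genes had one at 5 of 24. That count was 3 (12.5%) with the full drug lists and 0 with the gene body alone, against 7.04% and 4.91% of all protein-coding genes. At Fos, the AP-1 subunit gene, the region scored 51.19 and its AZD2014 peak beyond the cut 56.91. Near Nr4a1, an orphan nuclear receptor gene, it scored 77.05, and neither full drug list had a peak there. Zfp36, an mRNA decay factor gene, Ier3 and Maff were the others. Myc and translation genes had one at 3 of 30, at Eef1b2, Eef1d and Eef1g, and each of these regions had a drug peak beyond the cut. Myc itself had none.

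Metabolic genes had one at 6 of 26. That count was 3 (11.5%) with the full drug lists and with the gene body alone, against 7.04% and 4.91% of all protein-coding genes. The start of Elovl6, a fatty acid elongase gene, scored 81.8 under DMSO and 59.06 under AZD2014 beyond the cut. In Srebf2, the gene of the master regulator of sterol synthesis, a region (chr15:82198244-82198625, score 60.69) lay 53 bp from the hairpin of Mir33 and had no peak in either full drug list. The microRNA miR-33 represses cholesterol export, and its mature strands from RefSeq are shown with the seed in capitals because the hairpin lies beside a region inside a listed gene.
miR-33-5p: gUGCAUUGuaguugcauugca
miR-33-3p: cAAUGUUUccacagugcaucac

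Hk2, Pfkl, Pfkp and Pgam1, glycolysis genes, completed the 6, with scores from 57.55 at Hk2 to 73.94 near Pfkl. Autophagy and lysosome genes had one at 2 of 24 (Mitf, score 57.33, and Ctsd, 51.48) and integrated stress genes at 3 of 22, among them Slc7a11, the cystine transporter gene (67.8).

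Interferon response genes had a DMSO-alone region at 5 of 29 (17.2%, interval 7.60 to 34.5), all from regions absent from both full drug lists. AZD2014-alone regions lay near 5 and rapamycin-alone regions near 1. Irf7, Ifitm1, Ifitm2 and Ifitm3 lie in one stretch of chromosome 7, and Irf2 on chromosome 8. The Ifitm1 start (chr7:140967745-140968330, score 86.28) was the highest, and Ifitm2 was counted through the same region. The region near Ifitm3 lay over the start of Ifitm6 with a score of 81.25. The nearest drug peaks stood 11330 and 11305 bp from the Ifitm1 region. All libraries came from poly(I:C)-treated mice, so that treatment does not distinguish the conditions.

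NF-kB and inflammation genes had one at 4 of 34. Ripk3, the necroptosis kinase gene, had 2 within 20 kb while both equal-length drug lists had 0. The region over its start scored 81.27 under DMSO and 57.08 under AZD2014 beyond the cut, and the one at 6836 bp scored 90.55 with no drug peak. Il1r1, the interleukin-1 receptor gene, had one over a start (74.99, AZD2014 59.22 beyond the cut), while its window held 1 DMSO, 3 AZD2014 and 2 rapamycin peaks. Nfkb1 had none. Apoptosis genes had one at 3 of 24 (Bmf and Hrk among them) and chromatin regulators at 3 of 38 (Setd1b, Tet3 and Smarca4).

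Markers of differentiated cells, which a cultured HSC sample could hold, were counted in the same way. Erythroid genes had one at 4 of 17 (23.5%, interval 9.56 to 47.3), all absent from both full drug lists. Among them were Rhag, Slc4a1 and Ank1, which encode membrane and membrane skeleton proteins of red cells. The Ank1 region scored 63.46 and the Slc4a1 region 59.62, with no drug peak of the equal-length lists within 20 kb of Slc4a1. Erythroid windows held 24 DMSO, 19 AZD2014 and 22 rapamycin peaks. AZD2014-alone regions lay near 2 erythroid genes and rapamycin-alone regions near 1. With the gene body alone the DMSO-alone count was 1 (5.88%), against 4.91% of all protein-coding genes. Megakaryocyte genes had one at 3 of 15 (Vwf, Nfe2 and Clec1b), neutrophil and monocyte genes at 3 of 20, of which Elane and Prtn3 shared 1 region, and mast cell and basophil genes at 1 of 14 (Mitf). B-cell genes had one at 1 of 15 (Ebf1), T and NK cell genes at 2 of 18 (Lck and Eomes), non-blood genes at 1 of 19 (Nes) and housekeeping genes at 2 of 16 (B2m and Tubb5). In a bulk sample, fewer cells of a type and less open chromatin per cell cannot be told apart. The part of cell composition in these regions was not tested.

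Values beside the cut show how finely membership turned. At Popdc2 and Ttyh3 the DMSO peaks scored 60.58 and 58.18, and the AZD2014 peaks, at 66.97 and 66.88, fell just beyond the cut, so these regions counted as DMSO-alone. At Emid1 and Tnn the DMSO peaks scored 55.97 and 75.71, and the AZD2014 peaks, both at 67.12, fell just inside it, so these did not. For rapamycin, the peak at Pkd2l1 (53.5, DMSO 96.83) fell just beyond and the one at Clec5a (53.7, DMSO 68.52) just inside. In all, 542 DMSO-alone regions had an AZD2014 peak beyond the cut, scoring 50.01 to 66.97, and 112 a rapamycin peak, scoring 50.02 to 53.5. More peaks lay beyond the cut in the AZD2014 list (4132) than in the rapamycin list (1044), so these counts do not compare the drugs.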

How the data were processed

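ATAC-seq peak lists of 3 libraries, 1 per condition, were analysed. The authors deposited 1 list per library with a score for each peak. Peak names carry the word MACS, and the submitters' processing notes name CASAVA and mm10. No source used here states the aligner, the caller's version and settings, or how duplicate reads, repeats and the transposase shift were handled. All of these affect the number and width of weak peaks. Columns 2 and 3 of each list hold positions counted from 0, written from 1 here.

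Each list was cut to 17189 peaks by score, with ties broken by width and then position. Peaks overlapping by at least 1 bp were merged. Places came from RefSeq genes on GRCm38.p6, a table without exons, so exons and introns were not separated. Gene ends were 1 kb on either side, gene windows 20 kb. Promoter windows, available for 17492 of 21887 protein-coding genes, and miRNAs came from RefSeq tables of the same build, with no other sequence used. For regions that are not DMSO-alone, place and width are those of the highest-scoring DMSO peak. With 1 library per condition nothing was tested. Intervals are 95% Wilson intervals. The code was checked on a simulated copy of the DMSO list, where all 200 removed peaks were found with 0 false ones.

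The members and gene lists were chosen with earlier results of these data known. Named genes were the 15 highest-scoring regions absent from both full lists near a gene, the 10 highest at gene ends, up to 10 genes with at least 3 regions, listed genes with a region at an end, the 3 widest regions, the 3 highest with a drug peak beyond the cut, and 13 fixed genes, of which Cdk6, Kit, Meis1, Hlf and Cdkn1c had no region. All other listed genes, loci, chromosomes and microRNAs were named after their values were seen. Some genes that the rule names are not reported here. Software was matplotlib 3.10.9, pandas 2.3.3, numpy 2.4.6, scipy 1.17.1 and Python 3.11.15.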

Additional observations from a re-analysis of the deposited data

How the results depend on the processing

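The number of regions (2053) stayed within 1.5 times with the full lists (1449), the 15000 highest scores (1580), reciprocal 50% overlap (2674), drug peaks within 500 bp counted as shared (1991), autosomes and X only (2051), peaks set to 200 bp (2638) and ties taken narrower first (2053). It was 697 with the 10000 highest scores and 243 with the upper 50% of each list, and only 39 and 11 of the 2053 were found again there, so which regions qualify depends on where the lists end. The gene-end share was 12.7% and 21.1% with ends of 500 and 2500 bp, 22.7% with all RefSeq genes, 32.1% with the 10000 highest scores and 24.6% with peaks set to 200 bp. Genes numbered 3707 with 50-kb windows (16.9% of all protein-coding genes) and 1075 with the gene body alone (4.91%), and listed genes 139 and 41. Among the 24 lists the count moved by over 1.5 times in 15 with 50-kb windows, 14 with the gene body alone and 7 with the full lists. The median rank was 15151 with the full lists and 8980 with the 10000 highest scores, and the median width 366 and 561 bp. Leaving out 4 Hoxa genes was chosen after the data were seen. No paired analysis was possible because each condition had 1 library. Depth is unknown, and with 1 library per condition a region absent from a drug list may have been open below the authors' threshold.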
